A study of Mus musculus with 8 samples.

Results

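The genes described here encode 9 receptor chains: Il18r1, Il18rap, Il1r1 and Il1rl1 of the interleukin-1 receptor family, and Il17ra, Il17rb, Il17rc, Il17rd and Il17re of the interleukin-17 receptor family. They were measured in double-positive (CD4+ CD8+) thymocytes, a stage of T cell development in the thymus, on one-colour mouse expression arrays. Probe sets were found by gene symbol in the platform annotation, among those with a single symbol. That gave 15 probe sets of 34945 with a single symbol, 5 of the interleukin-1 and 10 of the interleukin-17 receptor family. They stood for 8 of the 9 genes, and Il1rl1 was not analysed here. The genes were chosen on the difference in array signal between the groups described below, so their own differences, and their calls in the fit over all genes, are given as a description, with no p-value.

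All mice were 4 to 5 weeks old and lacked Tcra, the T-cell receptor alpha chain, so that thymocytes do not pass positive selection. Of the 8 mice, 4 were labelled Control, c-Myb sufficient, and 4 Mutant, c-Myb deficient, with 1 array per mouse. The source names go against these labels. They give the sufficient mice Mybf/f Cd4-Cre Tcra-/- and the deficient mice Mybf/w Cd4-Cre Tcra-/-. Groups are named here by title and genotype field, and each difference is deficient minus sufficient under those labels. Cd4-Cre is active from the double-positive stage onward, and the cells were enriched by magnetic selection for CD4, which other CD4+ cells carry too. The comparison was made to address the effect of losing c-Myb, a transcription factor, on these cells before selection. The groups also differed in Xist, as described below.

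Values are signals in array units, scaled by the authors to a 2% trimmed mean of 250 on each array, and array medians ran from 30 to 37.9. The dim limit used here is the median of the whole table, 33.8. The defining double-positive genes Cd4, Cd8a, Cd8b1, Rag1 and Ptcra were above it on all 8 arrays, as were all 9 analysed markers of this stage. Myb itself was not lower on deficient arrays: its 3 probe sets differed by 0.04 to 0.36 (log2). The probe set at 0.36 ± 0.09 (SE) read 4183.2 to 5158.2 on sufficient and 5458 to 6395.8 on deficient arrays. That at 0.28 ± 0.09 read 8326.5 to 10387.9 and 10511.9 to 11754. On both, deficient arrays were higher without overlap, while groups overlapped on the probe set at 0.04 ± 0.09. The place of these probe sets relative to the floxed part is unknown here, so they do not check the labels. Xist read 4128.7 to 5735.5 on the 4 deficient arrays and 4358.5 on sufficient replicate 1, but 23.4 to 36.7 on the other sufficient arrays. The Xist class, high or low, thus went largely with the groups. What goes with it and what goes with c-Myb can hardly be told apart here. Of 9941 genes tested with limma, 992 (9.98%) were called at an adjusted p under 0.05, and 26 with the Xist class as a term, a fit in which sufficient replicate 1 alone carries the comparison.

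Interleukin-18 is an inflammatory cytokine of the interleukin-1 family. Its receptor joins a binding chain, encoded by Il18r1, with a signalling partner, encoded by Il18rap, and both reach NF-kappaB through the adaptor MyD88. Interleukin-17 receptors pair the shared chain Il17ra with a partner chain that sets the ligand, and they signal through the adaptor Act1, encoded by Traf3ip2. Natural killer cells, type 1 helper T cells and innate-like T cells are known for the interleukin-18 receptor.

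Il18r1 and Il18rap are neighbours on chromosome 1, and Il17re and Il17rc are neighbours on chromosome 6. These 4 genes were the members higher on deficient arrays, so their promoters are shown, 250 bases before to 50 after a start that the RefSeq promoter table gives, GRCm38.p6 (for Il18r1 the outermost of 3). Capitals mark AACNG, the core letters bound by Myb, on either strand, and neighbouring matches can share bases.
Il18r1 promoter, chr1:40465302-40465601, plus strand: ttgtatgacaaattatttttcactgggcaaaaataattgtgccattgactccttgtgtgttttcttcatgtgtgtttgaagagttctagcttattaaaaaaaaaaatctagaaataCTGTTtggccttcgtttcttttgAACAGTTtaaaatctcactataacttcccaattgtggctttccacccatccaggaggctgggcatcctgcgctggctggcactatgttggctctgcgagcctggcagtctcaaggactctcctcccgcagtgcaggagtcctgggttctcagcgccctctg
Il18rap promoter, chr1:40515112-40515411, plus strand: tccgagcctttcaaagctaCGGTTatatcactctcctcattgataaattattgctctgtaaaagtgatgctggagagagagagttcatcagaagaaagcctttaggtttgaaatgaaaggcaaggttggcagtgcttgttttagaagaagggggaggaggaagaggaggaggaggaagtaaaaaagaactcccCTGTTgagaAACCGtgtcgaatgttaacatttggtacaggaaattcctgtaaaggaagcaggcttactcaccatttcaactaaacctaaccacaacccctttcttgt
Il17re promoter, chr6:113458521-113458820, plus strand: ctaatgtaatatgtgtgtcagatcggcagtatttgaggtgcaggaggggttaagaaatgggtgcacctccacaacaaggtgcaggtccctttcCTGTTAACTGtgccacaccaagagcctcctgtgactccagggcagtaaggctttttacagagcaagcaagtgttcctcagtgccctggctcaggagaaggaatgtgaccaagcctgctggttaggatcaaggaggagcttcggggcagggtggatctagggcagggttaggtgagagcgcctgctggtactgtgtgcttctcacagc
Il17rc promoter, chr6:113471205-113471504, plus strand: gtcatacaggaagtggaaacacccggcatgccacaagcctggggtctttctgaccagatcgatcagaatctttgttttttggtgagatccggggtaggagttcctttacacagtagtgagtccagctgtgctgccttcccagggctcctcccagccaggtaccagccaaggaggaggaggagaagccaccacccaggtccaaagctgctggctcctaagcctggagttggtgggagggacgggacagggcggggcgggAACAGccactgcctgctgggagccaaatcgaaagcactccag
The Il18r1 and Il18rap windows held 3 matches each, Il17re 2 and Il17rc 1. AACNG occurs in 80.3% of 32817 promoter windows of this length, with a median of 2 matches, so such matches are common. The AP-1 letters TGANTCA, found in 7.81% of windows, were in none of the 4 windows and once in that of Il17rb. The long Maf recognition element, which contains the AP-1 letters, was in none of the member windows searched and in 2 of all windows. Il17ra had no window in the promoter table and was not searched. The Ets letters GGAA, found in 96.0% of windows, occurred 2 times for Il18r1, 5 for Il18rap, 3 for Il17re and 5 for Il17rc.

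Deficient arrays carried high Il18r1 signals and sufficient arrays next to none. Probe set 1421628_at read 41.2, 59.8, 1.5 and 18.3 on sufficient replicates 1 to 4, and 3075.9, 4217.4, 5090.7 and 1920.3 on deficient replicates 1 to 4. The lowest deficient array was 1860.5 units above the highest sufficient one. Group means were 30.2 ± 25.6 and 3576 ± 1378 (SD, n = 4 each), with 2 of 4 sufficient arrays below the dim limit. The fitted log2 difference on the log2(signal + 16) scale was 6.39 ± 0.42 (SE), and it moved with the pseudocount, to 7.48 at 1 and 5.23 at 64. In bulk RNA, more cells that carry a transcript and more transcript per cell cannot be told apart, here and below.

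Il18rap, the signalling partner, was higher on the same arrays, at signals nearer the background. Probe set 1456545_at read 5.3, 37.2, 5.9 and 13.2 on sufficient and 145.4, 237.7, 358.9 and 122.2 on deficient arrays, so the groups did not overlap. The log2 difference was 2.88 ± 0.37 (SE), 4.00 with a pseudocount of 1 and 1.76 with 64. Its other probe set, 1421291_at, read 16.3, 12.5, 8.5 and 2.5 on sufficient arrays and 76.9, 154.1, 191.0 and 25.7 on deficient ones. All sufficient arrays were below the dim limit there, as was deficient replicate 4, and the deficient mean was at least 2.17-fold above that limit on the log2 scale. Both probe sets of Il18rap thus differed in the direction of Il18r1.

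The other genes analysed in the interleukin-1 receptor cluster were dim or differed little, and Il1rl1, next to Il18r1, was not analysed here. Il1r1, the signalling receptor of interleukin-1, was below the dim limit on all 8 arrays, from 2.9 to 30 on probe set 1448950_at and from 0.4 to 11.6 on 1459777_at. Il1rl2, a receptor chain for interleukin-36, lies between Il1r1 and Il1rl1. It read 98.4 ± 19.2 and 91.5 ± 13.6, a log2 difference of -0.08 ± 0.16 (SE, limma adjusted p = 0.802). The decoy receptor gene Il1r2 and the sodium-proton exchanger genes Slc9a4 and Slc9a2, which follow Il18rap, were below the dim limit on all arrays. Map4k4, a kinase gene at the other end, differed by 0.19 ± 0.11 (adjusted p = 0.314). Among the genes analysed in this stretch, the 2 adjacent interleukin-18 receptor genes were the ones whose groups did not overlap at signals above the dim limit.

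**Figure D1:**
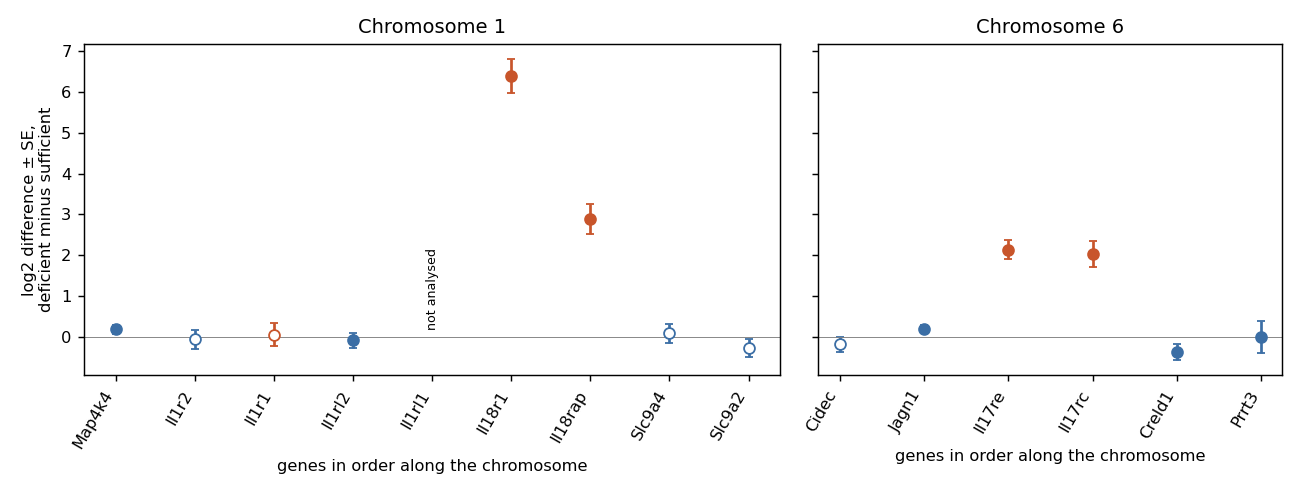
Log2 difference (deficient minus sufficient, bars ± SE of the fit) of genes in their order along chromosome 1 (left) and chromosome 6 (right), each by its brightest probe set. Members are orange and other genes blue, and open points were below the dim limit on all 8 arrays. Il18r1 and Il18rap stand at 6.39 and 2.88, Il17re and Il17rc at 2.14 and 2.03, and the genes that are no members lie between -0.38 and 0.20.

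Il17re, the chain that binds interleukin-17C, was measured above the dim limit in both groups by its brightest probe sets. Probe set 1426566_s_at read 197.1, 189.0, 104.3 and 109.2 on sufficient arrays and 582.9, 735.0, 1013.1 and 518.7 on deficient ones. Its log2 difference was 2.14 ± 0.24 (SE). The groups did not overlap on this probe set or on the other 2. Probe set 1452109_at read 104.0 to 166.8 and 270.6 to 511.9 (log2 1.51 ± 0.21), and 1439357_at 31.7 to 53.8 and 92.9 to 378.2 (log2 1.99 ± 0.34). The 3 probe sets share their target gene, so they are no independent measurements of the difference.

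Il17rc, which pairs with Il17ra to bind interleukin-17A and interleukin-17F, was above the dim limit on deficient arrays only, at low signals. Probe set 1419671_a_at read 11.1, 6.0, 5.3 and 2.6 on sufficient arrays, all below the dim limit, and 57.6, 69.0, 157.6 and 44.2 on deficient ones. The deficient mean was at least 1.81-fold above the dim limit on the log2 scale, and the fitted difference of 2.03 ± 0.32 went to 3.48 and 1.0 with pseudocounts of 1 and 64. Its other probe set, 1457471_at, stayed between 1.5 and 18.4 on all 8 arrays. The 2 probe sets of Il17rc therefore disagree, and the signal rests on 1 of them. Of the genes beside this pair, Jagn1 differed by 0.20 ± 0.08 (adjusted p = 0.155) and Creld1 by -0.38 ± 0.18 (adjusted p = 0.213) in limma.

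Il17ra, the shared signalling chain, was abundant and lower on deficient arrays. Probe set 1420905_at read 2030.8, 2286.0, 2199.4 and 2062.2 on sufficient arrays and 1557.4, 1554.0, 1394.4 and 1686.3 on deficient ones. The log2 difference was -0.47 ± 0.08 (SE). Probe set 1420904_at read 1042.0, 1175.4, 1279.9 and 1238.5 against 651.8, 572.2, 628.7 and 612.5, a difference of -0.92 ± 0.09. Groups did not overlap on either probe set, and spreads were small, with the highest deficient array 1.21 and 1.14 times the lowest. Thus the shared chain was lower on the arrays where the partner chains Il17re and Il17rc were higher.

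Il17rb, which pairs with Il17ra as the receptor of interleukin-25, read 137.2, 190.8, 165.8 and 220.8 on sufficient and 124.6, 108.2, 114.2 and 160.8 on deficient arrays. The groups overlapped, and the log2 difference of -0.44 ± 0.18 (SE) went to -0.11 with the Xist class as a term. Chdh, a choline dehydrogenase gene beside Il17rb, fell from 1084 ± 101 to 787 ± 60.5 (log2 -0.45 ± 0.10, limma adjusted p = 0.0144), and Actr8 on the other side differed by -0.16 ± 0.08 (adjusted p = 0.226). Il17rd, a chain best known as an inhibitor of growth factor signalling, was below the dim limit on all 8 arrays with both probe sets, from 1.3 to 20.9. Arhgef3, beside Il17rd, rose from 280 ± 126 to 826 ± 240 (log2 1.57 ± 0.31, limma adjusted p = 0.00953). Hesx1, on the other side of Il17rd, differed by 0.38 ± 0.18 (adjusted p = 0.231). Kdm5a, beside Il17ra, differed by -0.09 ± 0.09 (adjusted p = 0.577).

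**Figure D2:**
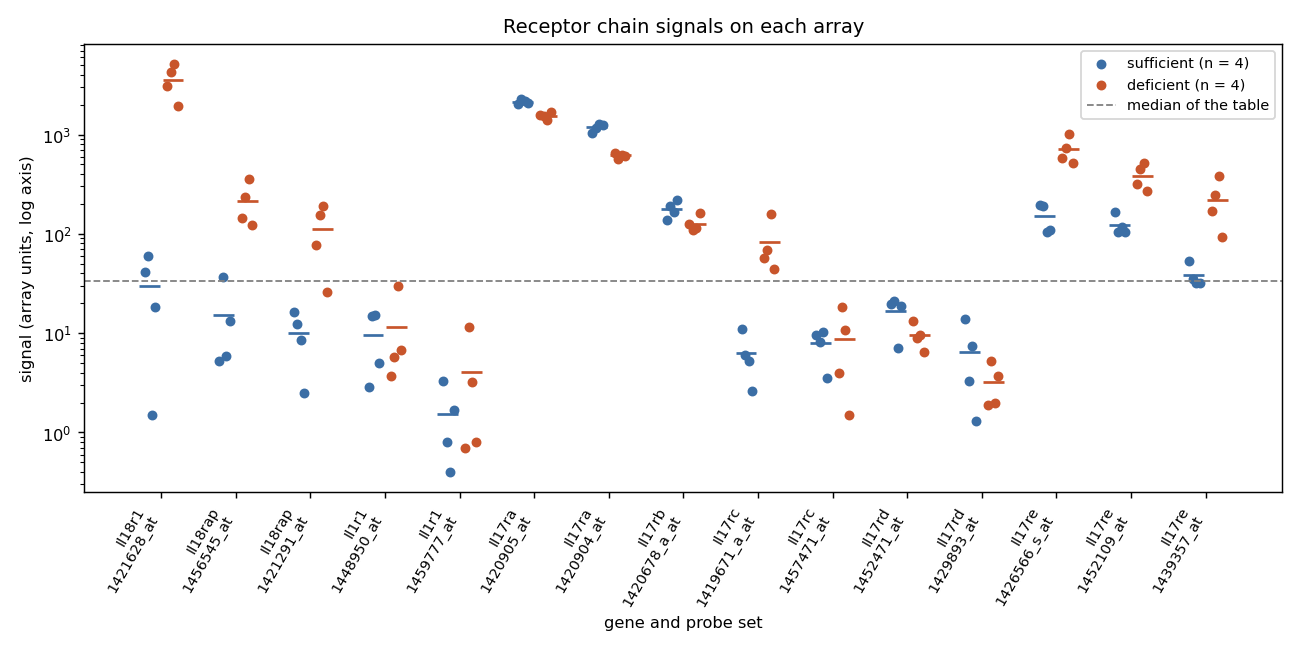
Signal (array units, log axis) of the 15 receptor probe sets on each array, with sufficient arrays in blue, deficient arrays in orange, bars at the mean of 4 arrays and a dashed line at the dim limit of 33.8. The groups are apart for Il18r1, both Il18rap probe sets, both Il17ra probe sets, 1 Il17rc probe set and the 3 Il17re probe sets, and both Il1r1 and both Il17rd probe sets stay under the line.

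Of the 15 probe sets, 9 had groups of arrays that did not overlap, 7 with higher and 2 with lower deficient signals. Of all 19100 probe sets past the filter on dim signals, 15.2% had groups that did not overlap. These sets are unlike, since the 15 include probe sets that did not pass the filter, the non-overlapping 1421291_at of Il18rap among them. Of the 9 member probe sets past that filter, 6 were called higher, 2 lower and 1 was not called, where 6.98% of all were called. By gene, 6 of the 9 members passed the filter and entered the fit over all genes: Il18r1, Il18rap, Il17re and Il17rc were called higher (background 5.89%), Il17ra lower (4.08%), and Il17rb was not called. Il17rc passed the filter through its deficient arrays alone. Il18r1, with 2 of 4 sufficient arrays above the dim limit, and Il18rap, with 1 of 4, would not have passed without their deficient arrays. The same holds for the Il17re probe set 1439357_at, with 2 of 4. Nothing is read from these counts, because the contrast chose the members. With the Xist class as a term, Il18r1 was the 1 member called, while the differences were 3.33 for Il18rap, 1.73 for Il17re, 1.73 for Il17rc and -0.39 for Il17ra. Of the 9 probe sets that did not overlap, 7 had a sufficient array above the dim limit, and on 5 of these, those of Il17ra and Il17re, sufficient replicate 1, the array with high Xist, lay nearest the deficient arrays, though outside their range.

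**Figure D3:**
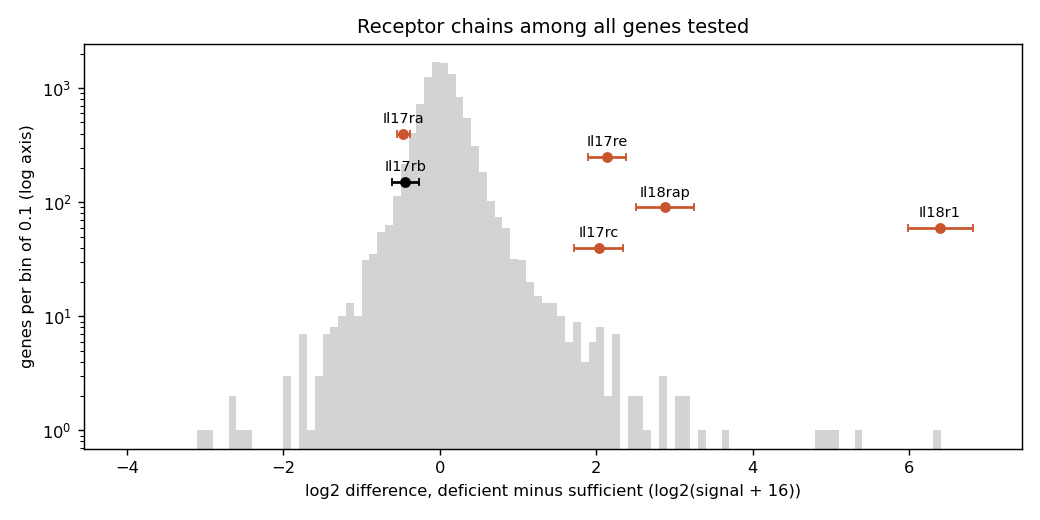
Histogram of the log2 difference (deficient minus sufficient, bins of 0.1, log axis) over the 9941 genes tested, with the 6 tested receptor genes as points with SE bars (height of the points is arbitrary), orange where called. Il18r1 lies at 6.39, Il18rap, Il17re and Il17rc between 2.03 and 2.88, and Il17ra and Il17rb at -0.47 and -0.44.

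The deficient mice differed among themselves in a shared way. On all 7 probe sets with higher deficient signals, deficient replicate 3 was highest, then replicates 2 and 1, and replicate 4 was lowest. Between the highest and lowest deficient array Il18r1 differed 2.65-fold, Il18rap 2.94-fold and Il17re 1.95-fold on their brightest probe sets. That order of the 4 deficient arrays was seen in 835 of 9941 genes tested (8.4%), in 150 of the 586 called higher (25.6%) and in 11 of the 406 called lower (2.71%). The reverse order, with replicate 4 highest and replicate 3 lowest, was seen in 1116 genes tested (11.2%), in 14 called higher (2.39%) and in 81 called lower (20%). Il17ra had that reverse order on probe set 1420905_at and not on 1420904_at, and Tnfaip3 and Nfkbie, described below, had it too. Deficient replicate 4 also stood apart in a ribosomal RNA control, at 7142.7 against 676.1 to 1459.4 on the other 7 arrays, while its ratio of 3′ to 5′ signal was 0.806 for Gapdh and 1.31 for Actb, against 0.718 to 0.824 and 1.18 to 1.28. The part of RNA quality in the order was not tested. Without that array the log2 difference was 6.66 for Il18r1 and 2.27 for Il17re. Probe sets of 1 gene share their target, and all of these values share the same 4 arrays.

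**Figure D4:**
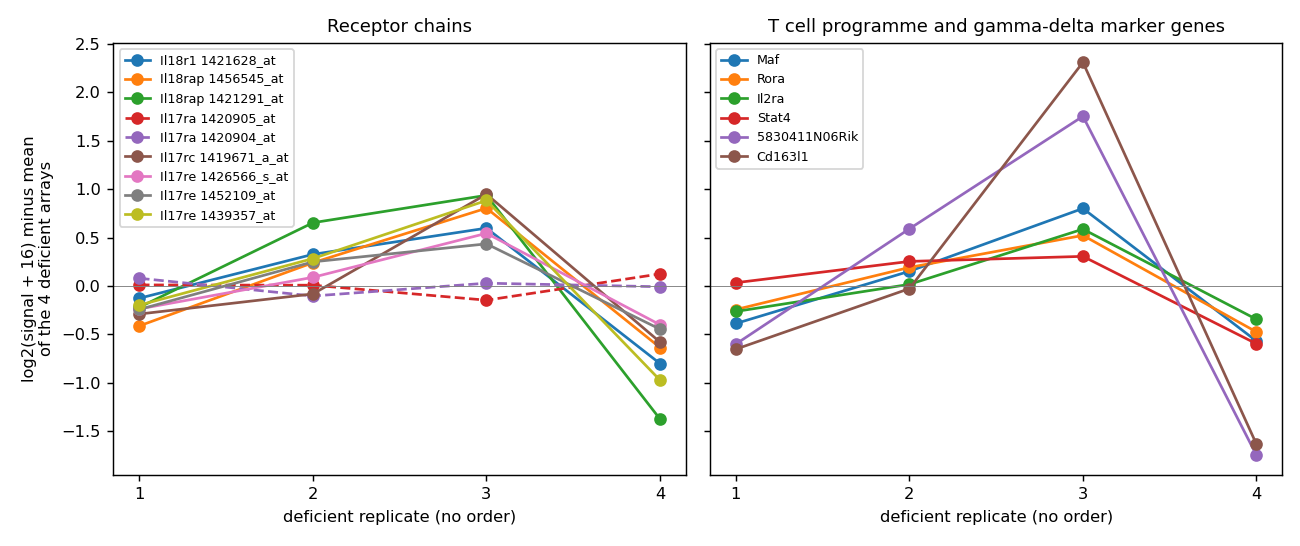
Log2(signal + 16) on each deficient array minus the mean of the 4 deficient arrays, for receptor probe sets whose groups do not overlap (left, dashed where lower on deficient arrays) and for T cell programme and gamma-delta marker genes (right). Lines join the values of 1 probe set and the replicates have no order. Replicate 3 is highest and replicate 4 lowest for each solid line in both panels. The right panel shows only Maf, Rora, Il2ra, Stat4, 5830411N06Rik and Cd163l1, and other genes of their lists had other orders.

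By likeness of their centred log2 profiles over the 8 arrays, the genes nearest to Il18r1 were Fosl2, an AP-1 factor gene, at a mean absolute difference of 0.69, Maf, a bZIP factor gene, at 0.75, and the scavenger receptor gene 5830411N06Rik at 0.89. Xist at 1.29 and the chemokine receptor gene Ccr7 at 1.37 came next. Nearest to Il18rap were Trim26 (0.31), the integrin gene Itgb7 (0.32) and the Notch pathway gene Dtx1 (0.33). Nearest to Il17re were Traf1 (0.11), St6gal1 (0.11) and Acoxl (0.14), and nearest to Il17rc were Grhl3 (0.16), Gfra1 (0.20) and Il17re itself (0.23). Mbd1 (0.046), Rnf145 (0.050) and Ssbp2 (0.050) were nearest to Il17ra. These profiles hold the group difference that chose the members, so genes with a difference of like size rank near. Shared regulation was not tested.

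Signals of the ligand genes were low: Il18 was above the dim limit on all 4 deficient and 2 of 4 sufficient arrays, with its highest value at 85.1. Of 10 analysed interleukin-1 family ligands and inhibitors 2 could be tested and 0 were called by limma: Il18 read 42.4 ± 10.7 and 55.5 ± 21.3 (log2 0.27 ± 0.23, adjusted p = 0.536), and Il18bp, the soluble inhibitor of interleukin-18, 32.4 ± 11.6 and 56.1 ± 8.23 (log2 0.60 ± 0.20, adjusted p = 0.0918). Without sufficient replicate 2, and with array weights, 1 of these ligand genes was called. Il18bp was named after its values were seen, as the other tested gene. All 4 analysed interleukin-17 ligand genes, Il17a among them, were below the dim limit on all 8 arrays.

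Among the other interleukin-1 receptor family chains, 3 of 6 could be tested. Sigirr, an inhibitory receptor chain, read 395.6, 496.7, 399.9 and 352.2 on sufficient and 510.5, 564.1, 747.2 and 584.8 on deficient arrays, and rose by 0.53 ± 0.14 (SE, limma adjusted p = 0.0336). The call ended without sufficient replicates 1, 3 or 4 (adjusted p = 0.0779, 0.0931 and 0.0789) and without deficient replicates 2 or 3 (0.0721 and 0.0870), as well as with no dim filter (0.0514) or no variance trend (0.0511). Il1rap, the co-receptor of interleukin-1 and interleukin-33, differed by -0.04 ± 0.15 (adjusted p = 0.901). Il1rapl1 and Il1rapl2 were below the dim limit on all arrays, like Il1r2 above.

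Of 28 tested adaptors and signalling enzymes 3 rose and 0 fell, with a median log2 difference of 0.09 against 0.02 over all genes, and that share of calls, 10.7%, is near the 9.98% of all genes. Traf5, a TRAF adaptor gene, rose from 75.2 ± 9.28 to 163 ± 21.0 (log2 0.97 ± 0.14, limma adjusted p = 0.00173). Peli2, a ubiquitin ligase gene of interleukin-1 signalling, rose from 195 ± 44.6 to 376 ± 53.7 (log2 0.91 ± 0.17, adjusted p = 0.00704). Traf3ip2, which encodes Act1, rose by 0.74 ± 0.21 (adjusted p = 0.0453), but its groups overlapped, with sufficient replicate 1 at 260.5 and deficient replicate 4 at 212.2. Its call ended without sufficient replicates 2, 3 or 4 (adjusted p = 0.0816, 0.132 and 0.0923) and without deficient replicates 1, 2 or 3 (0.117, 0.131 and 0.116), as well as with no dim filter (0.0767), no variance trend (0.0688) or every probe set tested (0.0580). Without sufficient replicate 4, 1 adaptor gene was also called lower.

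Of 11 tested NF-kappaB genes 2 rose and 3 fell, with a median of -0.08, so that 45.5% were called against 9.98% of all genes. The pathway lists were chosen with earlier results of these data known, so nothing is read from the share of calls in a list. Tnfaip3, which encodes the inhibitor A20, read 1516.2, 2222.9, 2054.0 and 2341.0 on sufficient and 791.3, 698.1, 493.8 and 995.8 on deficient arrays, and fell by 1.45 ± 0.20 (log2, limma adjusted p = 0.00132). Nfkbia, the inhibitor IkappaB-alpha, fell by 0.37 ± 0.07 (adjusted p = 0.00554), with its 4 other probe sets from -0.67 to -0.51. Nfkbie, a related inhibitor, fell by 0.72 ± 0.15 (adjusted p = 0.0141) on an _s_at probe set, which can match several transcripts. Its call ended without sufficient replicate 3 (adjusted p = 0.0535), on its other probe set (0.0609, with _s_at and _x_at sets left out) and with every probe set tested (0.0792). The rises were Arid5a, an RNA-binding protein gene of interleukin-17 responses, by 1.13 ± 0.14 (adjusted p = 0.000918), and Tnip1, which encodes a partner of A20, by 0.85 ± 0.13 (adjusted p = 0.00308). Inhibitors of NF-kappaB were thus among both the falls and the rises.

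Of 18 tested genes of the type 1 and type 17 T cell programme 5 rose and 1 fell, with a median of 0.17, so that 33.3% were called against 9.98% of all genes. Nothing is read from this share either, since the list was chosen with earlier results known. Il12rb1, a receptor chain shared by interleukin-12 and interleukin-23, read 139.6, 172.2, 93.7 and 137.9 on sufficient and 444.6, 423.1, 517.5 and 316.2 on deficient arrays, a rise of 1.54 ± 0.18 (limma adjusted p = 0.000691). Stat4, the factor downstream of interleukin-12, rose by 1.19 ± 0.25 (adjusted p = 0.0123). Rora, a nuclear receptor gene of type 17 cells, rose by 1.19 ± 0.23 (adjusted p = 0.00841). On 4 further Rora probe sets the rise was smaller, between 0.77 and 1.12. The smallest of these rises was not called when every probe set was tested (limma adjusted p = 0.0884). Calls of the remaining Rora probe sets are not given here. Maf rose by 4.91 ± 0.25 (adjusted p = 2.63e-06), Il2ra, an interleukin-2 receptor chain, by 3.20 ± 0.42 (adjusted p = 0.00117), while Ifngr1, a chain of the interferon gamma receptor, fell by 0.58 ± 0.11 (adjusted p = 0.00651). Maf, Rora, Il2ra and Stat4 had the order of deficient arrays seen for Il18r1, and Il12rb1 did not. Irf4, Runx3 and Stat3 of this list, which were not called, had it too, as did Myd88 and Nfkb2 of other lists. With the Xist class as a term, Maf (5.01) was the 1 listed gene still called in the 6 lists, and Il12rb1 differed by 1.48 (adjusted p = 0.0834), Stat4 by 1.0 (0.421), Rora by 0.94 (0.398), Tnfaip3 by -1.05 (0.190) and Traf3ip2 by 0.34 (0.774).

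**Figure D5:**
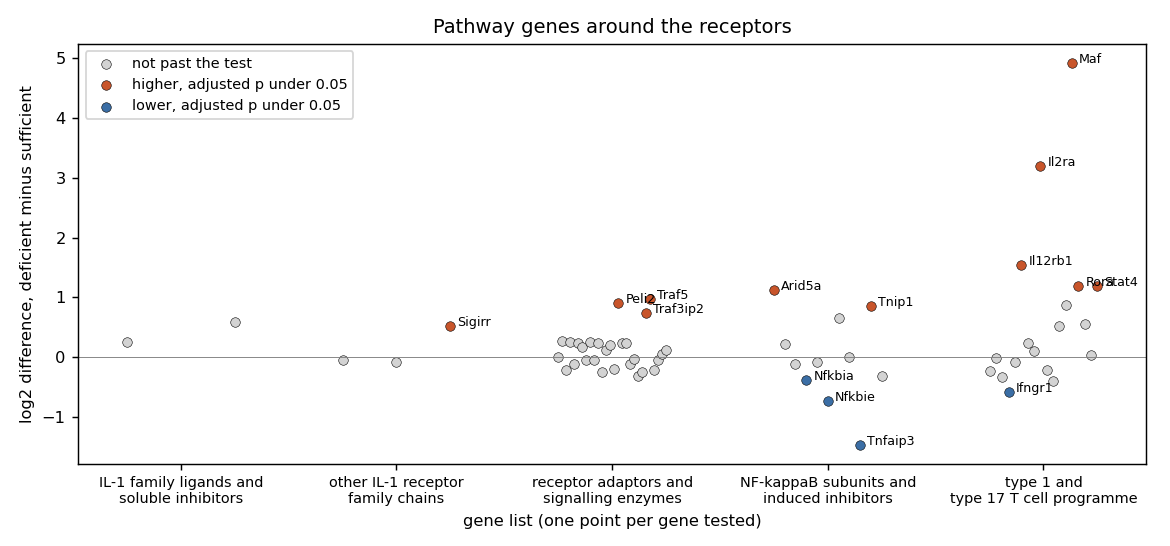
Log2 difference (deficient minus sufficient) of each tested gene of 5 pathway lists, 1 point per gene, orange for higher and blue for lower at an adjusted p under 0.05. The sixth list, interleukin-17 ligands, had no gene past the dim limit. Maf at 4.91 and Il2ra at 3.20 lie highest and Tnfaip3 at -1.45 lowest.

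Markers of other cell types were set beside these receptors. Which of these cell types the CD4-selected fraction of mice without Tcra can hold was not tested. Of 6 analysed gamma-delta T cell markers 2 passed the filter and both rose, where 5.89% of all genes were called higher. The 4 deficient arrays were enough for both to pass. Of 4 sufficient arrays, 1 was above the dim limit for Cd163l1 and 3 for 5830411N06Rik. Nothing is read from these calls, since the marker lists were chosen with earlier results known. 5830411N06Rik read 12.5 to 66.6 on sufficient and 927.0, 2136.2, 4800.7 and 409.5 on deficient arrays (log2 4.80 ± 0.61, limma adjusted p = 0.00101). Cd163l1, its close relative, read 10.8 to 36.5 and 100.3, 163.4, 890.9 and 42.9 (log2 2.43 ± 0.65, adjusted p = 0.0400). Both had the order of deficient arrays seen for Il18r1. That order was not particular to them: S100a8, not called, and S100a9, not tested, had it too. These 2 are listed here as markers of macrophages, dendritic cells and granulocytes. The summed signal of the 6 gamma-delta markers ran from 69.6 to 191.6 on sufficient and from 552.3 to 5836.8 on deficient arrays. On deficient arrays that sum was mostly 5830411N06Rik. The Cd163l1 values come from an _x_at probe set, and its other probe set past the filter differed by 2.28. Il17a and Ccr6 were below the dim limit on all 8 arrays, and Blk and Sox13 on 3 of 4 sufficient and 2 of 4 deficient arrays. Genes of the gamma and delta receptor chains were not analysed here, and the part of such cells in the receptor signals was not tested.

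Of 9 NK and NKT cell markers 3 were tested and 0 called. Their sum ran from 122.7 to 317 and from 244 to 371.9, and Ncr1, Klra1 and Zbtb16 were below the dim limit on all arrays. Klrd1 read 14 to 74.2 on sufficient and 75.5 to 107.8 on deficient arrays, without overlap (log2 0.78 ± 0.32, limma adjusted p = 0.155). Nkg7 differed by 0.39 ± 0.27 (adjusted p = 0.435) and Fcer1g by -0.17 ± 0.21 (adjusted p = 0.668), both with overlap. The part of such cells in the receptor signals was not tested. Of 5 regulatory T cell markers 1 of 3 tested rose, Tnfrsf18 by 0.79 ± 0.13 (adjusted p = 0.00475), their sums were 701.1 to 779.5 and 936.3 to 1247.8, and the defining gene Foxp3 was below the dim limit on all arrays. No marker of mast cells and type 2 innate lymphoid cells could be tested, 6 of 8 were below the dim limit on all arrays, and their sums were 63.7 to 106.8 and 77.2 to 110.3. Among tested markers 0 of 2 for B cells (sums 7113.6 to 7348 and 7626 to 8572.7), 0 of 5 for macrophages, dendritic cells and granulocytes (276.9 to 586.1 and 359.8 to 623.6) and 0 of 3 for thymic stroma (807.3 to 864.9 and 557.7 to 814.7) were called by limma. The B cell sum was mostly Ighm, at 6579.2 to 6880.5 and 7105.8 to 8077.6, while Cd79a was below the dim limit on all arrays and Ms4a1 and Pax5 on 7 of 8 each. Of the 9 double-positive markers 0 rose and 3 fell, Cd1d1 by 0.54, Rag2 by 0.41 and Dntt by 0.26. The sums of the 9 were 55527.1 to 59682.7 and 52708 to 56114.7. That is 33.3% called, where 4.08% of all genes were called lower. Nothing is read from this share, since the marker lists were chosen with earlier results known. Cd4, not called, differed by -0.08 ± 0.12 on its brightest probe set and by -0.46 on its other one. The other probe sets of Cd8a, not called either, differed by -0.00 to 0.21.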

How the data were processed

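RNA of 8 mice, 4 per group, was measured on 8 one-colour arrays. The deposited values are linear intensities (signals) per probe set, from GCOS per the submitters' processing notes. Its settings were not given in the sources used here. All arrays share a trimmed mean, so scaling removed any difference in total RNA per cell. Scan dates were not used here, and no batch could be tested. The number of arrays limits the precision.

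From 45101 probe sets, 64 controls were left out. A probe set was kept when above the table median (33.8) on at least 4 of 8 arrays, and each gene was represented by its brightest single-symbol probe set by mean log2(signal + 16), giving 9941 genes. Identifiers of 34741 of 34945 single-symbol probe sets matched the RefSeq gene table of GRCm38.p6, used for symbols and neighbours. Groups were compared with limma 3.58.1 in R 4.3.3 (lmFit, eBayes with a variance trend, two-sided, Benjamini-Hochberg over all genes, threshold 0.05). Member probe sets were fitted among all probe sets with no dim filter. On this scale the change of dim genes is understated. The method was tested on simulated data. Python 3.11.15, pandas 2.3.3 and matplotlib 3.10.9 made tables and plots.

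Members, the 6 pathway lists and the 8 marker lists were chosen with earlier results of these data known. Named were all members, of each list up to 6 called genes by size or else the brightest tested gene, all other interleukin-1 receptor family chains, Xist and Myb, and the nearest genes by profile. Cell type markers and the genes beside members were named where a comparison rests on them. Alternatives changed the pseudocount, normalization, dim filter, probe set choice, variance model and array weights, added the replicate number or the Xist class (cut at a signal of 1000), or left out each array. Same-numbered arrays of the 2 groups had correlations of their deviations from the group means of 0.0037, 0.17, -0.27 and 0.36, so the numbers do not pair them.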

Additional observations from a re-analysis of the deposited data

Results flagged for a closer look

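Among 72 groups of 4 arrays examined for the genes named in the report, 5 held 1 array far from the other 3, and chance gives about 1 in 20. Il1r1 (1448950_at) read 30 on deficient replicate 3 against 3.7 to 6.7 on the other deficient arrays, all below the dim limit. Il17rd (1452471_at) read 7.1 on sufficient replicate 3 against 18.8 to 20.9, also below it. Il17re (1439357_at) read 53.8 on sufficient replicate 1, the array with high Xist, against 31.7 to 35.4 on the other sufficient arrays. Nfkbia (1420088_at) read 6077.7 on deficient replicate 2 against 5865.6 to 5890.8. Il1r2 (1419532_at) read 17.6 on deficient replicate 2 against 3.5 to 5.2, below the dim limit.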

How the results depend on the processing

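Among the values that answer a comparison, 179 of the alternatives stayed within the replicate spread or within 1.5 times the count, 25 did not, and none turned the sign of a called member. With pseudocounts of 1 and 64 the log2 difference went to 7.48 and 5.23 for Il18r1, 4.00 and 1.76 for Il18rap, and 3.48 and 1.0 for Il17rc. Requiring signals above the dim limit on all 8 arrays left 2 members called, 1 higher, since the others were no longer tested. Testing every probe set on its own called 8 member probe sets, 2 lower, and 17 higher and 9 lower for the pathway lists, against 11 and 4 by gene. Array weights called 1745 genes and 2 members lower. With the Xist class as a term 26 genes, 1 member (1 higher, 0 lower) and 1 higher and 0 lower list genes were called, and Il17rb differed by -0.11. In that fit 1 sufficient array shares the class of the deficient ones, and the cause was not tested.

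Leaving out 1 array gave 494 to 1195 genes called, lowest without sufficient replicate 3 and highest without deficient replicate 4. Dropping deficient replicate 1, 2 or 3 gave 605, 515 and 578. Members called ranged from 4 to 5, since Il17rc was not tested without any 1 of the deficient arrays, and list genes from 9 to 13 higher and 3 to 5 lower. The log2 difference ranged from 5.99 to 6.70 for Il18r1, 2.61 to 3.17 for Il18rap, 1.96 to 2.28 for Il17re, 1.71 to 2.22 for Il17rc, -0.51 to -0.42 for Il17ra and -0.55 to -0.34 for Il17rb. The replicate block, with numbers that pair no samples, called 1035 genes and the same 5 members. Signals below the dim limit carry no order, which limits Il1r1, Il17rd and the sufficient levels of Il18rap and Il17rc.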
